A study of Mus musculus with 4 samples.

Results

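Secretory granules release their hormone through a small set of proteins that bring the granule to the plasma membrane, hold it there and fuse the 2 membranes when calcium enters the cell. Of the 31053 genes in the count tables, 62 belong by name to the families of these proteins. The rule took every symbol of the synaptotagmins (*Syt*, 17 genes), the synaptotagmin-like proteins (*Sytl*, 5), the syntaxins (*Stx*, 15) and the syntaxin-binding proteins (*Stxbp*, 7). It also took the vesicle-associated membrane proteins (*Vamp*, 7), the SNAP proteins (*Snap23*, *Snap25*, *Snap29*, *Snap47* and *Snap91*) and the GTPases *Rab3a* to *Rab3d*, *Rab27a* and *Rab27b*. The rule used names and no measured values, so not every gene taken acts at the plasma membrane (*Stx7* is an endosomal syntaxin). *Snap91* shares only its name with the other SNAP proteins, since it encodes a clathrin adaptor. Single-cell RNA sequencing was performed on islets of male C57BL6/J mice (C57BL/6 in the sample labels) that were pooled, divided, and either left without cytokine or cultured ex vivo for 6 h in IL-1β, in IFN-γ or in a mixture of the 2. Each of these 4 conditions gave 1 library.

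In textbook terms, a VAMP on the granule pairs with a syntaxin and a SNAP protein on the plasma membrane, and this SNARE complex pulls the membranes together. Synaptotagmins are the calcium sensors of the process, although several of them, such as *Syt4* and *Syt13*, lack calcium-binding residues and do not sense calcium in the same way. Syntaxin-binding proteins chaperone the syntaxins or hold them apart from their partners, while Rab3 and Rab27 on the granule recruit effectors such as the synaptotagmin-like protein granuphilin (*Sytl4*), which docks insulin granules.

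Of 12571 barcodes, 7471 passed the limits of 200 to 4000 detected genes and at most 12% mitochondrial reads, counted as unique molecular identifiers (UMIs, 1 per captured transcript). Cells were placed in classes by hormone transcripts alone. A cell was called a β-cell when *Ins1* and *Ins2* made up at least 10% of its UMIs, and an α-, δ- or PP-cell when *Gcg*, *Sst* or *Ppy* made up at least 2%, provided that the leading hormone was at least 2 times each of the others. This gave 4715 β-cells (1170 without cytokine, 1075 in the IL-1β library, 1215 in the IFN-γ library and 1255 in the combined one), 918 α-cells (91, 351, 301 and 175), 377 δ-cells (47, 115, 142 and 73) and 192 PP-cells (32, 38, 67 and 55). The remaining 1269 cells were in no class. Values for the libraries are given throughout in the order untreated, IL-1β alone, IFN-γ alone and combination. The classes summed to 59125945 UMIs in β-cells, 7352455 in α-cells, 2524680 in δ-cells and 1831219 in PP-cells, so that β-cell levels are the most precise. The level of a gene is its summed UMIs in the class, scaled to counts per 1000000 (CPM) by all UMIs of that class and library. Since 1 UMI stands for 1 transcript counted at its 3′ end, levels of different genes were set side by side without scaling for length. With 1 library per condition no cytokine comparison has a replicate, and the intervals given cover counting error only.

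The hormone classes also carried other markers of the cell types they are named for. The α-cell marker list summed to 13118 CPM in untreated α-cells against 763 CPM in untreated β-cells, with *Ttr* the most abundant, and the δ-cell list to 4750 CPM in untreated δ-cells against 68.4 CPM in β-cells, with *Rbp4* the most abundant, although *Rbp4* was also high in untreated α-cells (2752 CPM, against 4311 CPM in δ-cells). The β-cell list was led by *Iapp*, which was also high in δ-cells (53191 CPM in untreated β-cells and 32503 CPM in untreated δ-cells). *Pyy* was the leading gene of the PP list in δ-cells, so that list separated the classes less sharply. Insulin transcripts, a measure of RNA free in the suspension, made up 42.2%, 22.9%, 29.5% and 33.9% of β-cell UMIs and at most 1.53% as much in any library of the other classes. Endothelial markers were low except in the δ-cells of the IL-1β library, where all 7 were detected and summed to 173 CPM (*Flt1* 61.7 CPM), against 28.6, 19.9 and 18.6 CPM in the δ-cells of the other libraries. Of the macrophage list, *C1qa* was the most abundant in β-cells and the list summed to 75.0, 42.1, 44.3 and 141 CPM there. A total of 4 barcodes occurred in more than 1 library.

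Every family was transcribed in β-cells, but a few members carried most of the transcripts. The 62 genes summed to 2531 CPM in β-cells, 2327 in α-cells, 2750 in δ-cells and 1937 in PP-cells as means of the 4 libraries. In β-cells, 35 of the 62 had a mean of at least 10 CPM and at least 100 UMIs, while 9 had a mean under 1 CPM and 2 of these, *Syt8* and *Syt10*, had no UMI. Only these 35 entered the cytokine comparisons in β-cells, whereas 38 did in α-cells and 28 in δ-cells. In PP-cells 9 did, and no calls were made for them.

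Among calcium sensors and their relatives, *Syt4* had the highest mean over the libraries in β-cells, at 156, 498.5, 271 and 319 CPM. *Syt13*, at 318, 205, 345 and 147 CPM, was above it in both libraries without IL-1β. *Syt7*, a high-affinity calcium sensor of insulin granules, was at 139.9, 203, 142 and 182 CPM. The classical neuronal sensor *Syt1* was nearly absent from β-cells, with at most 9 UMIs in a library. Of the granule-docking *Sytl* genes, *Sytl4* was at 124, 65.5, 117 and 48.5 CPM and thus highest without IL-1β. *Sytl1* reached 12.8 CPM and *Sytl5* 10.8 CPM, both in the untreated library.

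The SNAREs themselves were led by *Snap25*, at 108, 141, 179.5 and 101 CPM, *Stx7*, an endosomal syntaxin, at 67.6, 202, 109.7 and 137 CPM, and *Vamp8*, at 103, 107, 102 and 135 CPM. *Vamp2*, the synaptobrevin of insulin granules, differed little between libraries (79.3, 70.4, 85.2 and 74.4 CPM), and *Vamp4* was at 45.0, 61.4, 61.7 and 43.6 CPM. *Stx3* was at 40.5, 85.6, 57.1 and 88.2 CPM and *Stx12* at 34.4, 75.5, 51.5 and 69.1 CPM, both lowest without treatment. *Stx1a*, the plasma membrane syntaxin of neurons, was far lower, at 2.84, 6.54, 5.09 and 8.35 CPM. *Snap47* was at 50.7, 46.7, 51.5 and 33.9 CPM and *Snap23*, the ubiquitous relative of *Snap25*, at 18.1, 37.1, 27.3 and 25.8 CPM.

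Of the syntaxin-binding proteins in β-cells, *Stxbp3*, which pairs with syntaxins of the plasma membrane, was at 24.3, 37.3, 28.8 and 22.4 CPM and *Stxbp5*, encoding tomosyn, at 23.5, 35.5, 29.4 and 22.2 CPM. Both were highest with IL-1β alone. Among the GTPases, *Rab27a* was at 90.5, 78.2, 101 and 38.9 CPM, *Rab3d* at 77.8, 58.0, 72.7 and 69.3 CPM, and *Rab3a* at 83.8, 27.3, 83.8 and 19.4 CPM. *Rab3a* and *Rab27a* were lower in both libraries with IL-1β than in both without it, *Rab3a* by more.

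**Figure D1:**
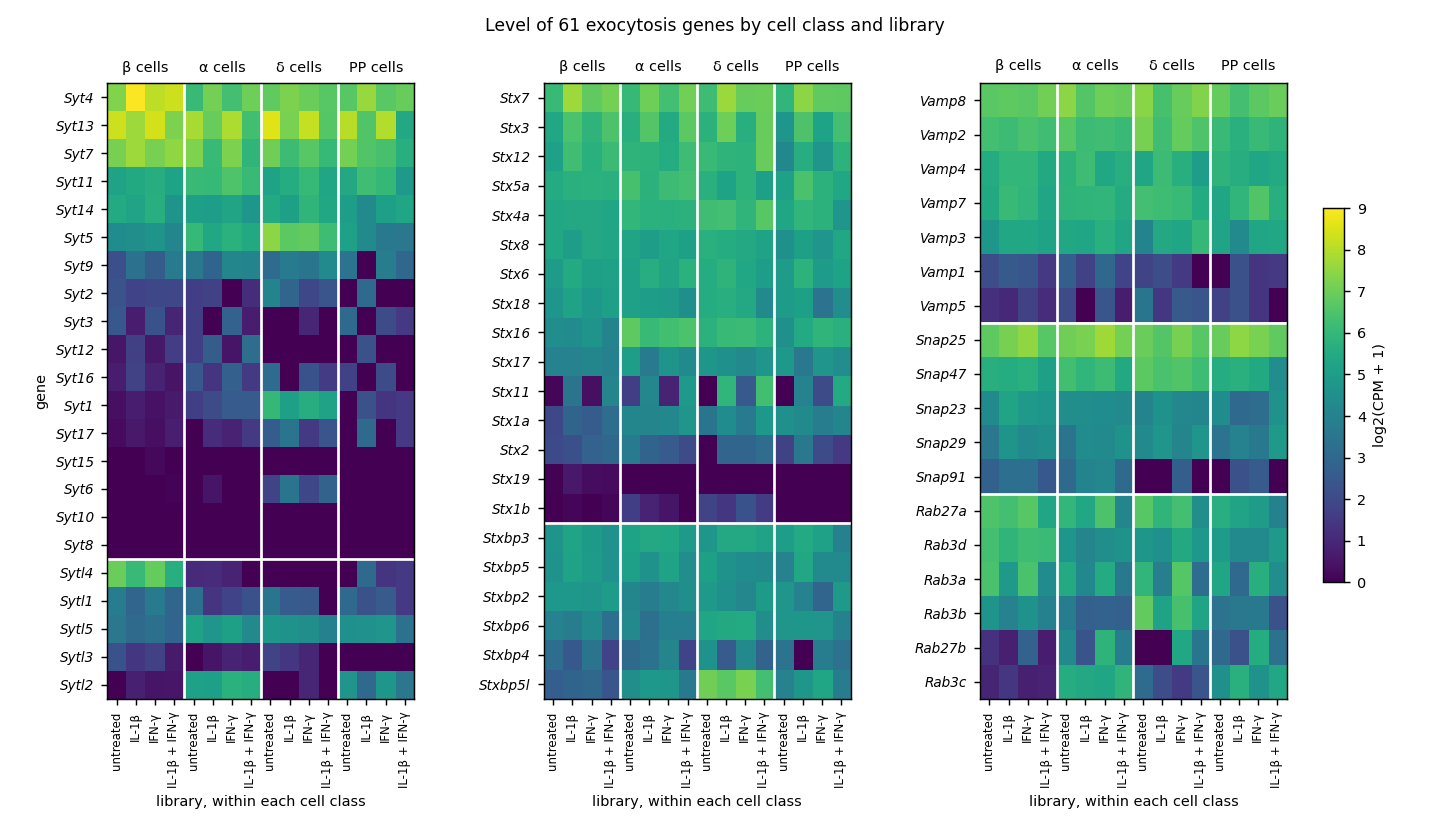
Level of 61 of the 62 genes (rows, by family and by mean level in β-cells) in each class and library (columns), as log2(CPM + 1). *Sytl4* is brightest in the β-cell columns, *Sytl2* and *Rab3c* mainly in the α- and PP-cell columns, and *Syt1* and *Stxbp5l* mainly in the δ-cell columns.

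To ask which of these genes distinguish the endocrine classes, UMIs were summed per library and class and compared with edgeR's quasi-likelihood test, keeping the library as a block. Genes were called at a Benjamini-Hochberg adjusted p under 0.05 and at least a 2-fold difference. There were 48 of the 62 genes among the 9745 entered, at a mean of 5 CPM and 100 UMIs. A gene with fewer than 100 UMIs outside the class in which it was highest passed the minimum through that class. Its calls and p-values are then only a description, as for *Sytl4*, *Sytl2*, *Syt1* and, of the lists below, *Rims3*. The libraries came from 1 pool of islets, and p-values therefore cover the spread between libraries and not between mice.

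α- and β-cells differed in members of several families. Against β-cells, 8 of the 48 genes were higher in α-cells (*Sytl2*, *Rab3c*, *Rab27b*, *Syt1*, *Stx16*, *Stxbp5l*, *Stx1a* and *Sytl5*), where 6.74% of all genes entered were called higher, and 8 were lower (*Sytl4*, *Rab3d*, *Syt4*, *Rab3b*, *Sytl1*, *Rab3a*, *Syt7* and *Syt13*), where 7.04% were called lower. The median absolute log2 fold change was 0.54 over the 48 genes and 0.33 over all genes. *Sytl4* had 2483, 631, 1605 and 761 UMIs in β-cells and 1, 3, 2 and 0 in α-cells, a log2 fold change of -6.99 (edgeR, adjusted p = 4.14e-13). The gene lies at chrX:133936385-133981812 on the minus strand (GRCm38). *Sytl2* (chr7:90302252-90410719, plus strand) showed the opposite pattern, at 34.2, 33.1, 52.9 and 48.1 CPM in α-cells and at most 0.727 CPM in β-cells (log2 fold change 6.47, edgeR, adjusted p = 7.27e-13). Both encode Rab27 effectors, and the values of the classes did not overlap for either gene. Their calls are descriptions. *Sytl4* had 6 UMIs in α-, 0 in δ- and 4 in PP-cells, and *Sytl2* 20 in β-, 1 in δ- and 34 in PP-cells.

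The Rab3 isoforms also differed between these classes. *Rab3c* was at 46.3, 42.6, 38.8 and 58.3 CPM in α-cells and at most 1.66 CPM in β-cells, with a log2 fold change of 5.17 (edgeR, adjusted p = 1.46e-14). By contrast, *Rab3d* was lower in α-cells (25.3, 15.96, 20.7 and 23.4 CPM), with a log2 fold change of -2.06 (edgeR, adjusted p = 8.89e-11), and *Rab3b*, at 13.2, 5.73, 6.20 and 5.70 CPM, had -1.76 (edgeR, adjusted p = 2.72e-07). *Rab3a* (log2 fold change -1.19) was also called lower. *Rab27b* had a log2 fold change of 3.03 (edgeR, adjusted p = 3.04e-08), while its close relative *Rab27a* (-0.97) was under the 2-fold limit. *Syt1* was at 2.20, 3.27, 4.96 and 5.07 CPM in α-cells against at most 0.623 CPM in β-cells (log2 fold change 2.78, edgeR, adjusted p = 1.31e-05). *Syt4* was lower in α-cells in every library, at 68.3, 138, 77.6 and 127 CPM, with a log2 fold change of -1.88 (edgeR, adjusted p = 1.28e-10). The calls of *Syt13* (log2 fold change -1.03) and *Syt7* (-1.09) lay near the 2-fold limit. Without the library treated with both cytokines these values were -0.94 and -0.81, and without the IL-1β library that of *Syt7* was -0.86, each under the limit. Among the α-cell genes *Stx1a* was also found in endothelial cells (49.2, 0, 20.9 and 14.4 CPM), whose part in the α-cell values was not tested, whereas neither *Sytl2* nor *Rab27b* had a UMI in the 130 endothelial and 146 macrophage cells, and *Rab3c* had 1.

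δ-cells also differed from β-cells in members of several families. In them, 10 of the 48 genes were higher than in β-cells (*Syt1*, *Stxbp5l*, *Rab27b*, *Stx11*, *Syt5*, *Rab3c*, *Rab3b*, *Stx16*, *Stx1a* and *Stxbp6*), beside 7.35% of all genes, and 6 were lower (*Sytl4*, *Snap91*, *Syt4*, *Rab3d*, *Sytl1* and *Syt7*), beside 6.81%. With no library block fewer genes were called in this contrast, as given in the closing section. *Syt1* was at 62.3, 33.4, 48.3 and 35.1 CPM in δ-cells, a log2 fold change of 6.10 (edgeR, adjusted p = 1.81e-12). Its call is a description, with 112 UMIs in δ-cells and 26 in β-, 30 in α- and 3 in PP-cells. *Stxbp5l*, which encodes a tomosyn, was at 132, 102, 145 and 78.5 CPM in δ-cells and 5.43, 6.54, 7.06 and 4.27 CPM in β-cells (log2 fold change 3.83, edgeR, adjusted p = 4.48e-14). *Syt5*, a calcium-binding synaptotagmin, was at 171, 105, 114 and 72.3 CPM in δ-cells and 19.7, 20.9, 24.02 and 16.3 CPM in β-cells (log2 fold change 2.03, edgeR, adjusted p = 2.83e-10). For these genes, which were named for their large fold changes, the lowest δ-cell library lay above the highest β-cell library. *Sytl4* had no UMI in δ-cells of any library. With 5480 UMIs in β-cells, or 92.7 CPM over the 4 libraries together, and a floor of 3 UMIs over all δ-cells (1.19 CPM), it was at least 78.0-fold lower in δ-cells.

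*Rab3b* distinguished δ-cells in the other direction from α-cells. Its level was 114, 35.0, 81.4 and 37.2 CPM in δ-cells, a log2 fold change of 1.31 against β-cells (edgeR, adjusted p = 1.46e-06). *Syt4* (log2 fold change -1.70, edgeR, adjusted p = 4.60e-09) was lower, and *Snap91* had 6 UMIs in δ-cells, all in the IFN-γ library (log2 fold change -2.13, edgeR, adjusted p = 0.00414). *Rab27b* (log2 fold change 2.20, edgeR, adjusted p = 1.51e-04) had UMIs in δ-cells only in the 2 libraries with IFN-γ, 43 and 5, and without the IFN-γ library its value was 1.43 and was no longer called. *Stx11* (log2 fold change 2.13, edgeR, adjusted p = 4.22e-06) came nearly all from the 2 libraries with IL-1β, as described below. The call of *Rab3c* in δ-cells rested on 9 UMIs and was lost without the untreated, the IFN-γ or the combined library (log2 fold changes 1.18 to 1.64). *Stxbp6* fell below 2-fold without the IL-1β library (0.87), and *Sytl1* was no longer called without the IFN-γ library (-1.31).

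PP-cells were compared on 192 cells. *Sytl2* (24.6, 7.43, 26.3 and 10.96 CPM, log2 fold change 5.56) and *Rab3c* (22.1, 52.0, 23.03 and 40.2 CPM, log2 fold change 5.003) were the highest of 8 genes called above β-cells, beside 6.19% of all genes (edgeR, adjusted p = 1.25e-07 and 8.26e-11). The others were *Rab27b* (2.92), *Stxbp5l* (1.96), *Stx1a* (1.61), *Stx11*, *Stx16* and *Sytl5*. Of the 5 called lower, beside 6.65% of all genes, *Sytl4* had 0, 2, 1 and 1 UMIs (log2 fold change -5.36, edgeR, adjusted p = 4.98e-09), and the rest were *Rab3d* (-1.61), *Rab27a* (-1.37), *Syt4* and *Rab3b*. Without the combined library *Stx11* and *Stx16* were at 1.09 and 0.97, and without the IFN-γ library *Sytl5* was at 0.95, none of them called. With no upper limit on detected genes the value of *Rab3b* was -0.50, so that this call rests on that limit.

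α- and δ-cells also differed from each other. 3 genes were higher in α-cells, beside 4.15% of all genes, and 6 were lower, beside 5.71%. *Sytl2* had 316 UMIs in α-cells and 1 in δ-cells, a ratio of 109 (95% counting interval 19.3 to 4299). *Rab3c* (log2 fold change 3.71, edgeR, adjusted p = 3.61e-08) and *Snap91* (2.59, edgeR, adjusted p = 0.00143) were the others. Lower in α-cells were *Syt1* (-3.32), *Rab3b* (-3.06), *Stxbp5l* (-2.29), *Stx11* (-1.51), *Stxbp6* (-1.43) and *Syt5* (-1.08), with adjusted p-values of edgeR from 1.20e-09 to 0.00109. Across the contrasts, *Sytl4* was highest in β-cells, *Sytl2* and *Rab3c* in α- and PP-cells, and *Syt1*, *Syt5*, *Rab3b* and *Stxbp5l* in δ-cells.

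**Figure D2:**
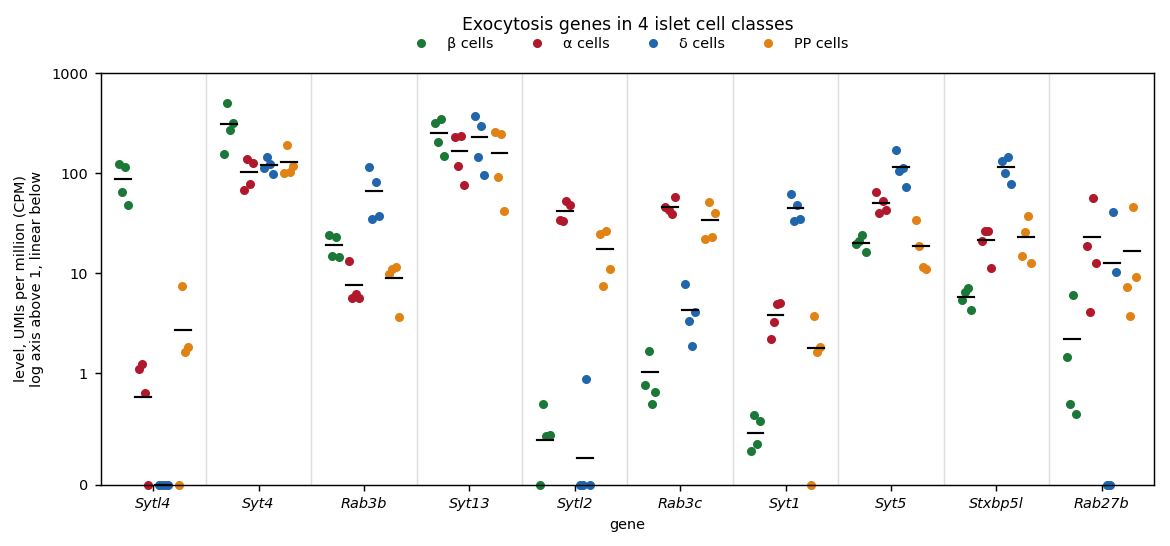
Level of 10 genes (CPM, log axis above 1 and linear below) in β-, α-, δ- and PP-cells, with a point for each of the 4 libraries and a line at their mean. *Sytl4* lies between 48.5 and 124 CPM in β-cells and is 0 in δ-cells of all libraries, and *Syt1* lies between 33.4 and 62.3 CPM in δ-cells and reaches at most 5.07 CPM in α-cells.

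Genes outside the rule were followed in lists of docking and priming factors (39 genes, 25 entered), exocyst subunits (12, 10 entered) and other SNAREs (13 listed and entered). The list of other SNAREs was not limited to granule fusion at the plasma membrane, so its values are not results about exocytosis. Against β-cells, 4 docking and priming factors were lower in α-cells and none was higher, 4 were lower in δ-cells and none was higher, and 2 were lower and 1 was higher in PP-cells. By the same test, 7.04%, 6.81% and 6.65% of all genes were lower and 6.74%, 7.35% and 6.19% higher in these classes. The active zone gene *Rims3* was at 37.4, 19.5, 29.8 and 18.7 CPM in β-cells and had 5 UMIs in α-cells, 1 in δ-cells and 3 in PP-cells. Its ratio of β- to δ-cells was 70.0 (95% counting interval 12.6 to 2768). *Pclo* (piccolo) was lower in all 3 classes, with log2 fold changes of -3.15, -1.29 and -1.75. *Cadps*, encoding the priming factor CAPS1, was at 85.2, 45.0, 101 and 42.2 CPM in β-cells and 81.5, 25.4, 119.8 and 34.8 CPM in α-cells, but had only 11 UMIs in δ-cells (log2 fold change against β-cells -4.57, edgeR, adjusted p = 6.44e-11). *Erc2* and *Exph5* were lower in α-cells, *Madd* in δ-cells, and *Cadps2* was higher in PP-cells. *Exoc6* of the exocyst was higher in all 3 classes (log2 fold changes 1.26, 1.64 and 1.88). *Exoc3l4* was called higher in α-cells, but it had 0, 75, 23 and 80 UMIs there and 12, 90, 14 and 166 in β-cells, so that no UMI came from untreated α-cells. *Gosr2* was the only other SNARE called, lower in δ-cells (-1.12). Between α- and δ-cells, *Cadps* (4.05) and *Exoc3l4* (1.61) were higher and *Pclo* (-1.87) and *Erc2* (-1.88) lower in α-cells. The median log2 fold change against β-cells in α-, δ- and PP-cells was -0.26, -0.17 and -0.12 for the docking list, 0.14, -0.00 and -0.06 for the exocyst, -0.16, -0.33 and -0.43 for the other SNAREs, and -0.00, -0.02 and -0.02 for all genes.

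Promoter sequences of 48 of the 62 genes were held in the RefSeq table (GRCm38.p6), in 61 windows of the 250 bases before the start of transcription. Windows were searched on both strands for the NF-κB consensus, which was found in 4 of the 61 (*Stx16*, *Stxbp3*, *Syt8* and *Vamp4*) and in 7.25% of all 32851 windows, for the STAT site TTCNNNGAA, in 4 (*Stx17*, *Sytl3*, *Sytl4* and *Vamp8*) and 7.02%, for the ISRE core (GAAA, any 2 bases, GAAA), in 3 and 2.98%, for the cAMP element TGACGTCA, in 1 and 1.55%, and for TATAAA, in 3 (*Rab3b*, *Stx2* and *Stx3*) and 12.4%. The windows of *Sytl4*, *Stx3* and *Rab3b* are shown 5′ to 3′ with the matches in capitals. *Sytl4* was the most restricted to β-cells among the genes of the rule that entered the class contrasts. *Stx3* and *Rab3b* were called in opposite directions with IL-1β in β-cells (below). The capitals mark a TTCNNNGAA match in *Sytl4* and TATAAA on either strand in the others. No matches overlapped in these windows. A match is a run of letters and was not tested as a binding site.
*Sytl4* (chrX:133981813-133982062, minus strand): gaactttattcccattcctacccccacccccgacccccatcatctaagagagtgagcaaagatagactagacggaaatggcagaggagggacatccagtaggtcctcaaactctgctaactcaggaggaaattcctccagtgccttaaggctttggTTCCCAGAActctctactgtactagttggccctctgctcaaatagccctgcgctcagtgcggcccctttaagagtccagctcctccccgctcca
*Stx3* (chr19:11819404-11819653, minus strand): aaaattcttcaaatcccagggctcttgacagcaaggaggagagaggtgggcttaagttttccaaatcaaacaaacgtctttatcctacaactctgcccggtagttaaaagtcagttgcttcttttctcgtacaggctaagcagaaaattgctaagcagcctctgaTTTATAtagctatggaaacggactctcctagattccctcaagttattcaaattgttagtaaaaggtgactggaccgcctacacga
*Rab3b* (chr4:108878820-108879069, plus strand): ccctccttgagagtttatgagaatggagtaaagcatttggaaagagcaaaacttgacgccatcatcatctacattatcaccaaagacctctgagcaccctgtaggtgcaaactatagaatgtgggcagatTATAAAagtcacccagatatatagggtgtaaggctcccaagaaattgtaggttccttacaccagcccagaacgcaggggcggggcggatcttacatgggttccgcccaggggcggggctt

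The cytokine comparisons used 2 pairs of libraries that share none. For IL-1β these were IL-1β against untreated and both cytokines against IFN-γ alone, and for IFN-γ they were IFN-γ against untreated and both against IL-1β alone. A gene was called when it was at least 1.5-fold higher, or lower, in both pairs. Where the 2 libraries in which a gene was low held fewer than 100 of its UMIs together, it passed the minimum through the libraries in which it was high, and its call is then only a description. The first pairs of IL-1β and IFN-γ share the untreated library, so their values are only set side by side. As the insulin share of β-cells differed between libraries, the median log2 ratio of all 7424 genes in β-cells was itself 0.41 and -0.21 in the IL-1β pairs and 0.30 and -0.30 in the IFN-γ pairs, and with the hormone genes left out of the totals it was 0.00, -0.11, 0.01 and -0.08. Ratios in β-cells are to be read against these values. In α-cells the medians were -0.00, -0.22, 0.10 and -0.11, and in δ-cells 0.10, -0.09, 0.01 and -0.15.

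In β-cells, IL-1β was accompanied by less of 4 of the 35 genes, the GTPases *Rab3a* and *Rab3b*, *Sytl4* and *Syt13*, while 4.94% of all 7424 genes were called lower by the same rule. A single gene, *Stx3*, was called higher, where 8.55% of all genes were. With median-of-ratios scaling 3 genes were higher and 5 lower, and with the hormone genes left out of the totals 2 were higher and 5 lower. Shares of all genes called in these 2 settings are not given. *Rab3a* (chr8:70754679-70758677, plus strand) had the largest ratios of the genes called in the main setting, at 83.8 and 83.8 CPM without IL-1β and 27.3 and 19.4 CPM with it. Its log2 ratios were -1.62 (95% counting interval -1.81 to -1.43) and -2.11 (-2.29 to -1.92). *Sytl4*, at 124 and 117 CPM without and 65.5 and 48.5 CPM with IL-1β, gave -0.92 (-1.05 to -0.79) and -1.27 (-1.40 to -1.14). *Syt13*, at 318 and 345 CPM without and 205 and 147 CPM with IL-1β, gave -0.63 (-0.71 to -0.56) and -1.23 (-1.30 to -1.16). Their levels in both libraries with IL-1β lay below those in both without it, an order that the call already requires within each pair. *Rab3b* was close to the limit (-0.67 and -0.66) and was no longer called with the hormone genes left out of the totals (-1.08 and -0.57). *Stx3*, a syntaxin of granule fusion, was at 40.5 and 57.1 CPM without and 85.6 and 88.2 CPM with IL-1β, giving 1.08 (0.94 to 1.22) and 0.63 (0.50 to 0.76).

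Other β-cell transcripts were at least 1.5-fold higher in the first pair and not in the second. This held for the table as a whole, where 37.9% of all genes were 1.5-fold higher in the first pair and 9.79% in the second, against 11 and 1 of the 35 genes. *Syt4* was at 156 and 498.5 CPM in the first pair (log2 ratio 1.68) and at 271 and 319 CPM in the second (0.23). *Stx7* gave 1.58 and 0.32, and *Stx12* gave 1.13 and 0.42. *Rab27a* had log2 ratios of -0.21 and -1.37 and was not called, but with the hormone genes left out of the totals these were -0.62 and -1.28, and it was lower by 1.5-fold in both pairs. Acinar markers in β-cells, led by *Ctrb1*, summed to 53.1, 15.6, 74.3 and 304 CPM, and their part in these values was not tested.

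In α-cells, 4 of 38 genes were lower with IL-1β (*Rab27b*, *Rab3a*, *Syt13* and *Syt7*), where 8.85% of all genes were, and 4 were higher (among them *Stx3*, *Stx7* and *Syt4*), where 6.83% were. With the hormone genes left out of the totals 4 were higher and 7 lower, with no share of all genes given. *Rab3a* was at 44.1, 17.6, 45.8 and 11.4 CPM (log2 ratios -1.32 and -2.01) and *Syt13* at 228, 119, 237 and 76.0 CPM (-0.94 and -1.64). *Syt7* was at 153, 65.9, 148 and 58.3 CPM, with log2 ratios of -1.22 (-1.55 to -0.88) and -1.34 (-1.69 to -1.01). *Rab27b* was at 18.7, 4.09, 56.2 and 12.7 CPM (-2.19 and -2.15). The calls of *Rab27b* (17, 10, 136 and 20 UMIs) and *Rab3a* (40, 43, 111 and 18 UMIs) are descriptions, since the libraries with IL-1β held few of their UMIs. For all 4 lower genes both libraries with IL-1β lay below both without it. The call already requires this order within each pair, so it is no separate support. *Stx3* was at 49.6, 94.9, 43.8 and 104 CPM, with log2 ratios of 0.94 (0.47 to 1.43) and 1.25 (0.89 to 1.62). *Stx7* (63.9, 128, 78.5 and 134 CPM) and *Syt4* (68.3, 138, 77.6 and 127 CPM) had mean log2 ratios of 0.88 and 0.87. *Rab27a* had log2 ratios of -0.58 and -2.42 in α-cells and missed the limit in the first pair. Of markers of other cell types, *Iapp*, the most abundant of the β-cell list, was at 2105, 7631, 2593 and 5575 CPM in α-cells, of list sums of 2738, 7775, 3079 and 5751 CPM, so that the rest of the list was lower in the libraries with IL-1β. The ductal list, led by *Spp1*, summed to 3108, 9515, 3808 and 4970 CPM. Their part in the α-cell values was not tested.

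In δ-cells, 6 of 28 genes were lower with IL-1β (*Rab3a*, *Syt13*, *Rab3b*, *Rab27a*, *Syt7* and *Syt5*), where 7.13% of all 3771 genes were, and 3 were higher (among them *Stx3* and *Vamp3*), where 9.23% were. *Rab3a* was at 59.7, 13.3, 97.5 and 8.27 CPM, or 23, 8, 103 and 4 UMIs (log2 ratios -2.16 and -3.56). *Syt13* was at 374, 145, 296 and 97.2 CPM (-1.37 and -1.61). *Rab3b*, which is highest in this class, was at 114, 35.0, 81.4 and 37.2 CPM (-1.71 and -1.13). In all 3 genes both libraries with IL-1β lay below both without, an order that the call already requires within each pair. *Rab27a* was at 101, 58.4, 77.6 and 20.7 CPM (-0.80 and -1.91). *Syt7* (132, 71.7, 99.4 and 64.1 CPM) and *Syt5* (171, 105, 114 and 72.3 CPM) had mean log2 ratios of -0.76 and -0.68. *Stx3* was at 54.5, 128, 50.2 and 118 CPM (1.24 and 1.23), higher in both libraries with IL-1β. Of the genes named for δ-cells, *Syt13* alone (144, 87, 313 and 47 UMIs) had over 100 UMIs in the 2 libraries in which it was low. The calls of *Stx3* (21, 77, 53 and 57 UMIs), *Syt7* (51, 43, 105 and 31), *Syt5* (66, 63, 120 and 35), *Rab3b* (44, 21, 86 and 18), *Rab27a* (39, 35, 82 and 10), *Rab3a* and *Vamp3* are descriptions. *Vamp3* had 6, 25, 41 and 30 UMIs in δ-cells (15.6, 41.7, 38.8 and 62.01 CPM), and its intervals in the pairs were 0.10 to 2.996 and -0.05 to 1.39. The endothelial markers of the IL-1β δ-cells noted above sum to more than those of any other endocrine class and library. Endothelial cells of that library had 43.9 CPM of *Stx3*, below the δ-cell level, but 117 CPM of *Vamp3*, and the part of endothelial RNA in the *Vamp3* value was not tested. When the leading hormone had to be at least 5 times each other, 210 δ-cells and 13 genes remained and 2 genes, *Syt13* and *Stx3*, were called, while *Rab3a* no longer entered.

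*Syt13* was called lower with IL-1β in β-, α- and δ-cells. *Stx3* was called higher in the same classes, in δ-cells as a description. *Rab3a* was called lower in them, in α- and δ-cells as a description, and in δ-cells on 8 and 4 UMIs with IL-1β and not with the 5-times hormone lead. In PP-cells, where no calls were made, *Syt13* was at 261, 92.8, 248 and 42.0 CPM, *Rab3a* at 39.3, 7.43, 49.4 and 20.1 CPM and *Stx3* at 24.6, 89.1, 36.2 and 78.6 CPM. The libraries with and without IL-1β had the same order there. As *Rab3a* had only 59 UMIs in PP-cells over all libraries, its order is a description.

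**Figure D3:**
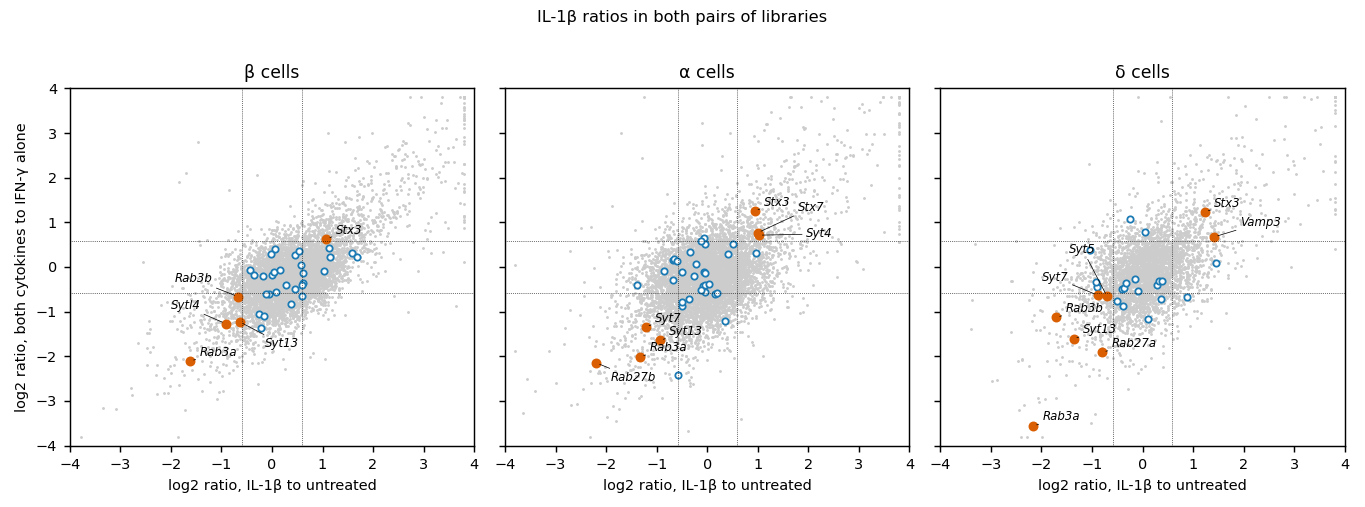
Log2 ratio of IL-1β to untreated (horizontal) against log2 ratio of both cytokines to IFN-γ alone (vertical) in β-, α- and δ-cells, for all genes entered (grey, drawn at the border where beyond it), the exocytosis genes not called (open circles) and those called (filled, named), with dotted lines at 1.5-fold. *Rab3a* and *Syt13* lie at the lower left and *Stx3* at the upper right in each panel.

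*Stx11*, a syntaxin best known from cytotoxic lymphocytes, did not enter the cytokine comparisons, as it had a mean under 10 CPM in β-cells and under 100 UMIs in α- and δ-cells. Its pattern across the libraries was singled out after the values were seen. Its UMIs were 2, 97, 4 and 255 in β-cells, 2, 41, 2 and 44 in α-cells, 0, 36, 5 and 37 in δ-cells, and 0, 4, 2 and 24 in PP-cells. The log2 ratios in β-cells were 6.66 (4.77 to 9.73) and 5.80 (4.43 to 7.69), and in α-cells 2.93 (0.98 to 6.02) and 5.08 (3.14 to 8.17). The highest level was 76.5 CPM, in δ-cells given both cytokines. Endothelial cells (9.84, 21.9, 17.4 and 43.2 CPM) and macrophages (9.56 to 33.7 CPM) held *Stx11* in all libraries, including those without IL-1β, on 2 to 9 UMIs each. In the IL-1β library the endothelial level (21.9 CPM) was below that of δ-cells (60.0 CPM), and the part of either cell type in the values of the endocrine classes was not tested.

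For IFN-γ, few genes were called. None of the 35 genes was called in β-cells, where 2.68% of all genes were called higher and 0.0673% lower, and none of the 28 in δ-cells (4.69% and 1.27%). In α-cells *Rab27b* was the single gene called higher of 38, beside 3.08% of all genes, and none was called lower, beside 0.738%. *Rab27b* was at 18.7 CPM without cytokine and 56.2 CPM with IFN-γ alone, and at 4.09 CPM with IL-1β alone and 12.7 CPM with both, log2 ratios of 1.58 (0.85 to 2.41) and 1.63 (0.47 to 2.89). As the IFN-γ library, where it was highest, brought it over the minimum of 100 UMIs, its calls for IL-1β and IFN-γ both rest on that library and are given as a description. In the other classes it was below the limits for a call and was singled out after its values were seen. Its UMIs there were also highest with IFN-γ alone, at 29, 7, 83 and 10 in β-cells, 0, 0, 43 and 5 in δ-cells, and 3, 1, 28 and 5 in PP-cells. No UMI of *Rab27b* was found in the endothelial or macrophage cells of any library.

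**Figure D4:**
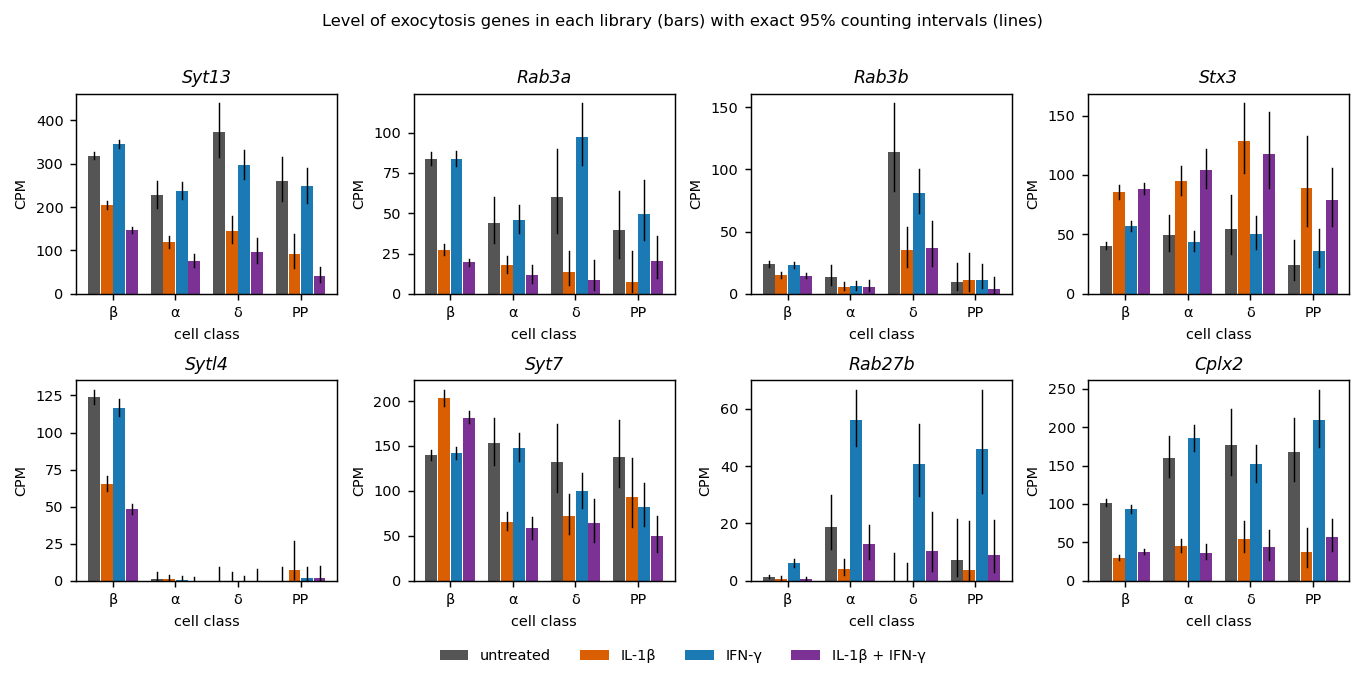
Level (CPM, bars) of 7 exocytosis genes and *Cplx2* in each class and library, with exact 95% Poisson counting intervals (lines). Bars of *Syt13*, *Rab3a* and *Cplx2* are lower, and those of *Stx3* higher, in both libraries with IL-1β in each class. *Syt7* is higher with IL-1β in β-cells, where it was not called, and lower in α- and δ-cells. *Rab27b* is highest with IFN-γ alone.

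Docking and priming factors outside the rule were compared in the same way. Of 22 docking and priming factors entered in β-cells, 4 were lower and 1 (*Scamp5*, log2 ratios 1.07 and 0.90) was higher, in α-cells 2 of 21 were lower, and in δ-cells 3 of 15 were lower and 1 (*Scamp2*) was higher. The shares of all genes called lower were 4.94%, 8.85% and 7.13% in these classes, and those called higher 8.55%, 6.83% and 9.23%. *Cplx2* (complexin 2, which clamps and supports SNARE fusion) was called in all 3 classes, at 102, 29.8, 93.4 and 38.0 CPM in β-cells, 160, 45.0, 185 and 36.7 CPM in α-cells and 177, 55.0, 151 and 43.4 CPM in δ-cells. Its log2 ratios were -1.77 and -1.30, -1.83 and -2.34, and -1.68 and -1.80. *Cadps* was lower in β-cells (-0.92 and -1.25) and α-cells (-1.68 and -1.78), *Pclo* in β-cells (-1.11 and -1.32) and δ-cells (-1.02 and -1.45), *Rims3* in β-cells (-0.94 and -0.67, but -1.35 and -0.58 and not called with the hormone genes left out of the totals), and *Madd* in δ-cells (-0.73 and -0.66), where both intervals of *Madd* included 0. In δ-cells the calls of *Cplx2* (68, 33, 160 and 21 UMIs), *Pclo* (39, 30, 107 and 18), *Madd* (17, 16, 69 and 20) and *Scamp2* (22, 54, 44 and 44) are descriptions by the same count. The median of the mean log2 ratios in β-, α- and δ-cells was -0.04, -0.17 and -0.15 for this list, 0.06, -0.04 and -0.16 for the exocyst, and 0.26, -0.04 and 0.15 for the other SNAREs, beside the medians of all genes given above for each pair. In the exocyst, *Exoc6* (14.3, 27.8, 12.8 and 25.3 CPM) and *Exoc3l4* (0, 30.7, 9.50 and 50.7 CPM) were called higher with IL-1β in α-cells, and *Exoc3l4* also with IFN-γ. As *Exoc3l4* had no UMI in untreated α-cells, where 3 UMIs would be 3.30 CPM, its first ratios have no upper bound. With 0, 75, 23 and 80 UMIs it reached the minimum of 100 UMIs only through the libraries where it was high, as did *Exoc6* with 13, 68, 31 and 40 UMIs, so these calls are a description. *Ykt6* was called lower in α-cells (34.2, 21.3, 25.6 and 13.9 CPM), also as a description (31, 52, 62 and 22 UMIs). With IFN-γ the only other gene of these lists to be called was *Rph3al* in δ-cells, lower at 125, 90.1, 79.5 and 53.7 CPM.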

How the data were processed

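Islets were pooled, divided and treated, and each condition gave 1 droplet library. Per the labels, the genome build is mm10 and Cell Ranger was used. The matrix headers name software version 3.0.0. The labels name version 2 of the reagent kit, the paper version 3. The deposited values are raw UMI counts per gene and barcode, made by the authors without normalization. Barcodes and gene names are deposited beside them.

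Cells were filtered and classed by hormone share in Python 3.11.15 (numpy 2.4.6, scipy 1.17.1, pandas 2.3.3), with no doublet caller beside the 2-times rule, and 373 cells had a leading hormone 1 to 3 times the next. Median UMIs per kept cell were 15454, 7462.5, 9615 and 11123.5. Counts were summed per class and library. Ratios have exact conditional binomial intervals and levels exact Poisson intervals (95%), which cover counting error only. Genes entered the cytokine comparisons at a mean of 10 CPM and 100 UMIs, and the class contrasts (edgeR 4.0.16 in R 4.3.3, TMM, adjusted over all genes entered) at a mean of 5 CPM and 100 UMIs. *Stx4* is named *Stx4a* in the files.

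Genes, lists and tests were chosen with earlier results of these data known. Named were the 3 most abundant genes of each family in β-cells, called genes (up to 8 per comparison) and called genes of the lists (up to 4). Gene positions were taken from GENCODE M21 for 61 of the 62 genes. The steps were tested on simulated data. Of the changed genes that entered, 100 of 100 in each direction were recovered in β-cells, 100 higher and 78 lower of 179 in α-cells, and 77 higher and 44 lower of 124 in δ-cells, with 0, 17 and 10 wrong calls among 7095, 6962 and 3659 unchanged genes. In the contrast of α- with β-cells all 200 genes changed 3-fold were recovered, with 1 wrong call. None of the 200 was among the least abundant genes entered, so recovery near the 2-fold limit or at low levels is not shown. Values of 1 gene are not reported here, and it is left out of the plots but counted in the totals.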

Additional observations from a re-analysis of the deposited data

Results flagged for a closer look

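*Syt7* met the rule for opposite effects of IL-1β in different classes. In β-cells it was higher in both pairs of libraries (log2 ratios 0.54 and 0.36, mean 0.45), with intervals above 0. The medians of all genes in these pairs were 0.41 and -0.21, and *Syt7* was not called in β-cells. In α-cells it was lower in both (-1.22 and -1.34, mean -1.28), and in δ-cells likewise (-0.89 and -0.63, mean -0.76). With the hormone genes left out of the totals the β-cell values were 0.13 and 0.45. The difference between the classes was not tested.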

How the results depend on the processing

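Counts of exocytosis genes called by class contrasts kept within 1.5 times of 16 (α against β), 16 (δ against β), 13 (PP against β) and 9 (α against δ) with DESeq2 (16, 16, 14 and 9), RLE factors, no upper gene limit, a 5-times hormone lead, no gene filter (21, 20, 16 and 12) and subtraction of the β-cell profile. Leaving out 1 library gave 15 to 19, 14 to 15, 13 to 15 and 9 to 9. The library was the block of the main fit. With no replicate block the counts were 15, 9, 9 and 8, so that the count of δ against β moved to 9. Shares of all genes called are not given for the alternatives, so the counts describe the settings and not the genes of the rule. Cytokine counts were small and moved more. The main counts for IL-1β were 5 in β-cells, 8 in α-cells and 9 in δ-cells, and for IFN-γ 0, 1 and 0. Without a gene filter they were 16, 13 and 14 for IL-1β and 3, 3 and 2 for IFN-γ. With a 2-fold call the IL-1β counts were 1, 3 and 4. A mean of 50 CPM left 0 genes for IFN-γ in α-cells, where *Rab27b* no longer entered. Median-of-ratios scaling gave 8 for IL-1β in β-cells (3 higher and 5 lower, against 1 and 4), and leaving the hormones out of the totals gave 4 higher and 7 lower in α-cells, against 4 and 4. A 5-times lead gave 2 for IL-1β in δ-cells. The IFN-γ count in δ-cells was 2 with no upper gene limit and with each cell weighted equally, and 1 with a 20% mitochondrial limit, without hormones in the totals, with median-of-ratios scaling, and with the leading hormone alone, an alternative added after seeing the data. No value of a called gene changed direction in any alternative, while 62 of them kept their direction but were no longer called. The shares of β-cells with a UMI fell on thinning to 4000 UMIs, for *Sytl4* in untreated cells from 80.6% to 38.6%. Leaving out a library could not be done for cytokine pairs, which hold 1 library per condition. At this depth levels in δ- and PP-cells rest on few UMIs.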
